A study of Schizosaccharomyces pombe with 6 samples.

Results

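Small nucleolar RNAs were followed as polyadenylated transcripts in fission yeast, Schizosaccharomyces pombe, that carried a mutation in the transcription termination factor Seb1. They were taken as all features of the deposited count table with an identifier of the small nucleolar RNA class or a product described as a small nucleolar RNA or as box H/ACA or box C/D. The rule found 61 of 6986 features, of which 57 were small nucleolar RNAs and 4 were protein-coding genes of box H/ACA particles (nhp2, nop10, gar1 and shq1). The 4 protein-coding genes are described with the other protein genes of the particles. The study held 3 libraries of a seb1-G476S strain and 3 of a wild-type strain, named as biological replicates in the series' design text. The mutant was h+ and carried STF19, the seb1-G476S allele, and rpb1-CTD-WT29 with KanMX. The wild type was h+ and carried rpb1-CTD-WT29 with NatMX. Both were grown vegetatively in YES, a rich medium, at 30 °C and collected in log phase. Each group came from 1 strain, and the drug marker cannot be told apart from the seb1 allele.

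Small nucleolar RNAs guide the chemical modification of ribosomal RNA. Box C/D RNAs direct methylation of the ribose by fibrillarin, box H/ACA RNAs direct the change of uridine to pseudouridine by Cbf5, and a few members such as U3, U14 and snR30/U17 act in cleavage of the ribosomal RNA precursor. Most are made by RNA polymerase II, from genes of their own or from introns, and the mature RNA carries no poly(A) tail. Seb1 is an RNA-binding protein of termination and 3′-end formation, related to Nrd1, which in budding yeast ends transcription of small nucleolar RNA genes. Polyadenylated forms are known as precursors and decay intermediates, which the exosome with Rrp6, the polyadenylating TRAMP complex and the poly(A)-binding protein Pab2 handle. The libraries were made from poly(A)-selected RNA, so the values concern polyadenylated RNA and say nothing of the amount of mature small nucleolar RNA. Counts in an annotated interval may come from such forms or from longer transcripts that cover it. These include an unspliced host and a transcript that runs on from a gene upstream. Which of these gave the counts was not tested.

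The RNAs that the results turn on are shown first, 5′ to 3′, as RefSeq gives them for assembly ASM294v3. The first set rose in the mutant and lies outside other annotated features of the same strand. Of these, snR93 is on the plus strand and snR33 on the minus strand of chromosome II, snR96 and snR88 are on the plus strand of chromosome I, and sno52 is on its minus strand. Capitals mark ACA where it stands 3 bases from the end, the mark of box H/ACA RNAs, or TGATGA in the first 20 bases (box C) and CTGA in the last 20 (box D). Box C and box D letters are not marked in RNAs with box H/ACA in their product, such as snR96, whose last 20 bases hold CTGA.
snR93: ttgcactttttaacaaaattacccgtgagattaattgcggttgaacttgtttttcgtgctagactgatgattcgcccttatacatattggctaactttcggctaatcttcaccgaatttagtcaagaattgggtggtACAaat
snR33: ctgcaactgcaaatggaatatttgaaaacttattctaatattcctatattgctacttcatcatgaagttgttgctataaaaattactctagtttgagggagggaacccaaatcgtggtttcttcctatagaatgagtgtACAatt
snR96: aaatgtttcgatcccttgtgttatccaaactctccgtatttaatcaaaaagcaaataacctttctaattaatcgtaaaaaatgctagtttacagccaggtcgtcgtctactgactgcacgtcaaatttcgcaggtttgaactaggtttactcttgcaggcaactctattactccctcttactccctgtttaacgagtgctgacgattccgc
sno52: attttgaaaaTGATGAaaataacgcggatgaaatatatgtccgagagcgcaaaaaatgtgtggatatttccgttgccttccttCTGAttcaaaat
snR88: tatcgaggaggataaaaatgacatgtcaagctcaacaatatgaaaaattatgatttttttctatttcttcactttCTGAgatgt
The second set holds snoR38, which rose and lies within an intron, snR101 and snoR69b, which had the largest falls, and snoU14, the member with the highest level per length. The first 3 of these are on the plus strand of chromosome I and snoU14 is on the plus strand of chromosome II.
snoR38: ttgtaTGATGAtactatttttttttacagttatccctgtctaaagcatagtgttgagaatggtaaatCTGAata
snR101: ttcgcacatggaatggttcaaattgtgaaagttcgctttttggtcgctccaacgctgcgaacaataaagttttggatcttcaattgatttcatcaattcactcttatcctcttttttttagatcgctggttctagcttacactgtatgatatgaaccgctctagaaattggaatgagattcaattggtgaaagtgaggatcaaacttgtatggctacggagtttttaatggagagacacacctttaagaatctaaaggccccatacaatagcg
snoR69b: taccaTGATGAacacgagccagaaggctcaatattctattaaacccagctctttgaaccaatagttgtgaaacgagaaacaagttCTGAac
snoU14: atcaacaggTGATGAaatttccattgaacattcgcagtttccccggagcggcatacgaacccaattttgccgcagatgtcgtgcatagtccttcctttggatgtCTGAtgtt

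All 57 small nucleolar RNAs had a RefSeq entry, with annotated lengths of 47 to 653 bases and a median of 100. The product text placed 19 in box H/ACA and 1 in box C/D and gave no box for 37. ACA followed by 3 bases ended 10 of the 57 sequences (17.5%), 9 of them among the 19 box H/ACA products, against 144 of the 6833 matched features of the table (2.11%). TGATGA in the first 20 bases together with CTGA in the last 20 was found in 17 of the 57 (29.8%) and in 17 of the 6833 (0.249%), all read on the feature's own strand. The motif TGTA, the DNA letters of a sequence that Seb1 is known to bind in RNA, was found within 200 bases downstream on the same strand of 46 of the 57 (80.7%), against 76.9% of all matched features. On the other strand the shares were 73.7% of the 57 and 66.6% of all. The windows downstream of the members thus held TGTA about as often as those of all matched features. Since most windows of any feature held it, presence alone leaves little room for a difference. The number of sites per window was not compared.

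Counts assigned to the 57 made up 0.0145% to 0.0165% of all counts in mutant libraries and 0.0136% to 0.0142% in wild-type libraries. Each library held 21013941 to 27910803 counts in all. Levels are given in CPM, the usual unit of counts relative to library size, here the size scaled by TMM, edgeR's normalization, in which 1 count was worth 0.0371 to 0.0445 CPM. Of the 57, 31 had enough counts for the test, 14 had counts but fell below the filter, and 12 were at 0 in all 6 libraries. A count of 0 allows up to 3 counts, or 0.111 to 0.134 CPM, and this limit covers counting error only. The tested members averaged 0.454 to 33.0 CPM over the 6 libraries, with a median of 1.62 CPM, against a median of 37.1 CPM for all 6046 tested features. The transcript of seb1 itself, the mutated gene, stood at 368, 361 and 341 CPM in mutant libraries and at 133, 119 and 108 CPM in wild-type libraries. Its log2 fold change was 1.57 (adjusted p = 7.33e-07, SE 0.0769 in edgeR's quasi-likelihood test), and since gene counts do not show the amino acid change, this value does not check the allele.

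Of the 31 tested small nucleolar RNAs, 7 rose and 6 fell in the mutant at an adjusted p under 0.05, the rule for every call given here. The p-values come from edgeR's quasi-likelihood test with Benjamini-Hochberg adjustment over all 6046 tested features. The 7 that rose were 22.6% of those tested, against 26.7% of all 6046 features, and the 6 that fell were 19.4%, against 28.4% of all features. Together 13 of 31 (41.9%) changed, against 55% of all features, so the class as a whole was called no more often than the background. Mutant and wild-type libraries did not overlap for 14 of the 31 (45.2%), against 63.9% of all features. Most members were low, and low features were called less often than all features. Below a mean of 5 CPM, 10 of 25 members (40%) and 481 of 1026 features (46.9%) were called. The median log2 fold change of the 31 was -0.12, beside -0.0078 for all tested features, and single members ranged from -1.16 to 6.13. Among the 13, 6 rose by at least 2-fold and 2 fell by at least 2-fold. With library totals alone in place of TMM, the calls of the class were 6 up and 7 down, and higher calls made up 33.4% of all calls over the table, against 48.5% with TMM.

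**Figure D1:**
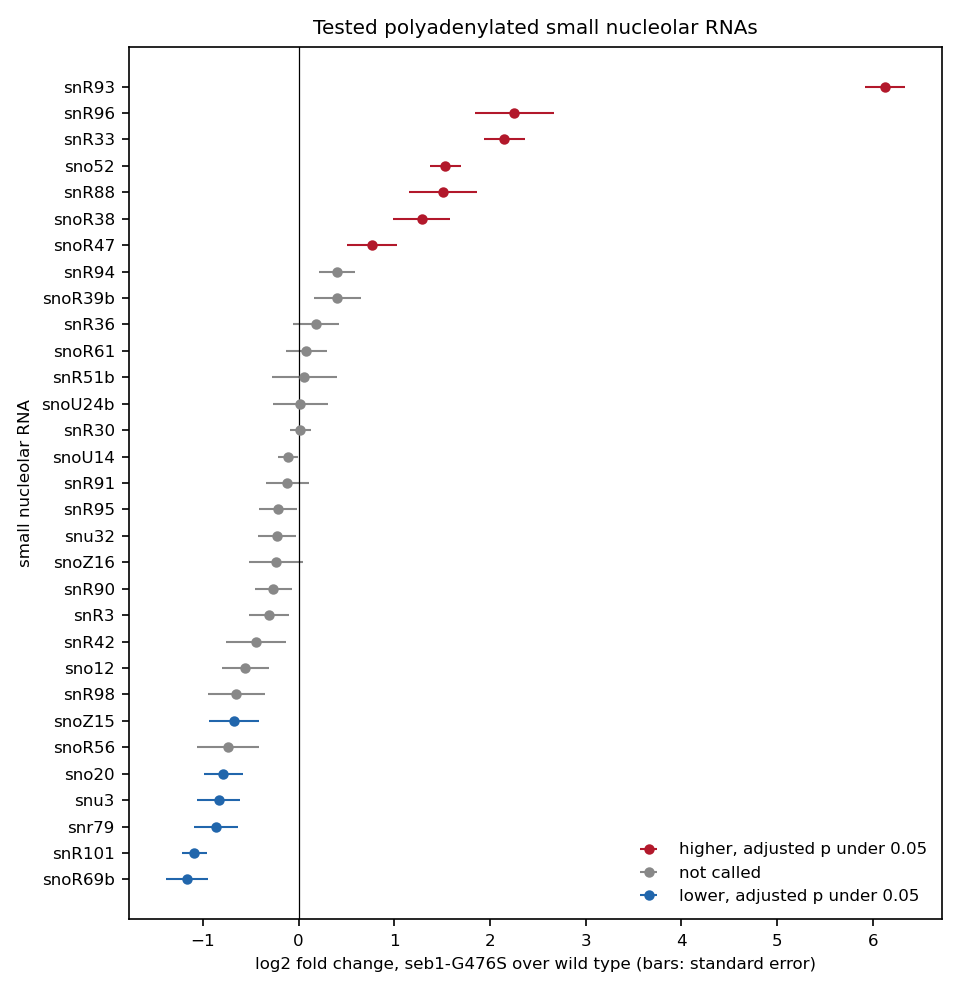
Log2 fold change in CPM (x axis, seb1-G476S over wild type) of the 31 tested small nucleolar RNAs (y axis), with bars of 1 standard error from the edgeR fit over 3 libraries a group; red marks the 7 that rose, blue the 6 that fell and grey those not called. snR93 stands far from the others at 6.13, and the 18 members not called lie between -0.74 and 0.40.

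The member with the largest change was snR93, a box H/ACA RNA. It had 30.8, 32.6 and 31.1 CPM in the mutant libraries, against 0.343, 0.661 and 0.312 CPM in the wild-type libraries. These rest on 714, 877 and 723 counts in the mutant and on 8, 17 and 7 counts in the wild type, all above the limit that a count of 0 allows. Every mutant library lay far above every wild-type library, and the mutant libraries lay close together. The means were 31.5 ± 0.918 CPM in the mutant and 0.438 ± 0.193 CPM in the wild type (SD, n = 3 each), for a fitted log2 fold change of 6.13, or 69.8-fold (adjusted p = 8.84e-08, SE 0.210, edgeR). This was the largest log2 fold change of all 6046 tested features. Per kilobase of annotated length, snR93 stood at 220 CPM in the mutant and 3.07 CPM in the wild type. By that measure it was number 2 from the top of the 31 in the mutant, after snoU14, and number 2 from the bottom in the wild type, after snR96. It took 18.5% to 20.8% of all counts on the 57 members in mutant libraries and 0.239% to 0.489% in wild-type libraries.

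The other box H/ACA RNAs that rose were snR33 and snR96. For snR33 the mutant libraries held 4.10, 4.97 and 4.87 CPM, against 0.772, 1.32 and 1.02 CPM in the wild-type libraries, with no overlap between the groups. Its means were 4.65 ± 0.476 CPM in the mutant and 1.04 ± 0.275 CPM in the wild type (SD, n = 3 each), a log2 fold change of 2.15 (adjusted p = 6.27e-05, SE 0.217, edgeR). For snR96 the mutant libraries held 0.950, 1.08 and 1.03 CPM, against 0.172, 0.0777 and 0.401 CPM in the wild-type libraries. The groups did not overlap, but the wild-type values rest on only 4, 2 and 9 counts, and 1 of them lies below the limit that a count of 0 allows. The log2 fold change of snR96 was 2.25, with an SE of 0.413 and an adjusted p of 0.00158 (edgeR). Without wild-type replicate 3, which holds 9 of the 15 wild-type counts, it was 3.01, an 8.03-fold rise in place of 4.76-fold.

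Of the 11 other tested RNAs with box H/ACA in their product text, 2 fell and 9 were not called. The one with the larger fall was snR101, at 8.51, 7.39 and 8.44 CPM in mutant libraries against 17.5, 18.8 and 15.5 CPM in wild-type libraries. All mutant libraries were low, and the means of 8.11 ± 0.629 CPM in the mutant and 17.3 ± 1.66 CPM in the wild type (SD, n = 3 each) gave a log2 fold change of -1.09 (adjusted p = 0.000167, SE 0.131, edgeR). sno20, also known as snR35, stood at 1.34, 1.48 and 1.98 CPM in the mutant and 2.92, 2.60 and 2.76 CPM in the wild type. Its groups did not overlap, for a log2 fold change of -0.78 (adjusted p = 0.0082, SE 0.199, edgeR). Thus 3 of the 14 tested RNAs with box H/ACA in the product rose and 2 fell, against 26.7% and 28.4% of all features. snR30, whose product names no box, is not among them. The median log2 fold change of the 14 was -0.24, while their summed level over all 19 products, which snR93 dominates in the mutant, was 66.3 ± 2.74 CPM in the mutant and 43.4 ± 1.76 CPM in the wild type (SD, n = 3 each). snR94, snR36, snR91, snR95, snR90, snR3, snR42, sno12 and snR98 were the 9 not called. Among these snR94 was the highest in CPM, at 4.71, 4.05 and 6.07 CPM in the mutant and 3.60, 3.46 and 4.14 CPM in the wild type. Its groups overlapped, and the log2 fold change was 0.40 (adjusted p = 0.0931, SE 0.188, edgeR).

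Members with no box in their product text gave 4 rises and 4 falls among 17 tested, with a median log2 fold change of 0.02. Over all features 26.7% rose and 28.4% fell. The highest of those that rose was sno52, whose sequence holds both box C and box D letters. It had 9.84, 12.7 and 11.4 CPM in mutant libraries, against 3.39, 4.51 and 3.78 CPM in wild-type libraries. The groups were well apart, at 11.3 ± 1.41 CPM in the mutant and 3.89 ± 0.567 CPM in the wild type (SD, n = 3 each), a log2 fold change of 1.53 (adjusted p = 8.96e-05, SE 0.165, edgeR). snR88, with box D letters but no TGATGA in its first 20 bases, stood at 0.907, 0.779 and 0.732 CPM in the mutant and 0.129, 0.350 and 0.356 CPM in the wild type. The highest wild-type library was less than the lowest mutant library, and the log2 fold change was 1.51 (adjusted p = 0.00583, SE 0.357, edgeR), on 3 to 9 counts per wild-type library. The last 2 that rose, snoR38 and snoR47, lie in introns and are given with their hosts.

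The largest fall of the class was that of snoR69b, an RNA with box C and box D letters. Its mutant libraries held 0.864, 1.04 and 1.08 CPM and its wild-type libraries 2.32, 1.83 and 2.58 CPM. There was no overlap, and the log2 fold change was -1.16 (adjusted p = 0.00185, SE 0.219, edgeR). snr79 stood at 1.12, 1.30 and 0.991 CPM in the mutant and 1.93, 1.75 and 2.58 CPM in the wild type, a log2 fold change of -0.86 (adjusted p = 0.0101, SE 0.228, edgeR). Here too every mutant library was below every wild-type library. snoZ15, the remaining member that fell, lies in an intron.

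Of the 4 RNAs of ribosomal RNA cleavage, 1 fell, against 28.4% of all features, and 3 were not called. U3 is present in 2 copies, snu3 and snu32. snu3 stood at 1.34, 1.04 and 1.85 CPM in the mutant and 2.40, 2.53 and 2.58 CPM in the wild type. The mutant libraries were all lower and varied more, and the log2 fold change was -0.84 (adjusted p = 0.0112, SE 0.227, edgeR), and without mutant replicate 2 the adjusted p was 0.0592. The other copy, snu32 (U3B), averaged 2.56 ± 0.292 CPM in the mutant and 3.0 ± 0.569 CPM in the wild type (SD, n = 3 each) and was not called, at a log2 fold change of -0.23 (adjusted p = 0.346, SE 0.197, edgeR). The start of snu3 as annotated resembles the end of snu32, so reads that fit both may have been split or left out by the counting. The rest of each interval has no like stretch in the other, and the difference between the changes of the copies was not tested. snoU14, the member with the highest level per length in both groups, had 32.5, 29.2 and 33.3 CPM in the mutant and 38.2, 32.7 and 31.7 CPM in the wild type. Its libraries overlapped and its log2 fold change was -0.11 (adjusted p = 0.381, SE 0.104, edgeR). snR30, or U17, had 24.9, 24.7 and 29.6 CPM in the mutant and 27.5, 24.2 and 26.6 CPM in the wild type. It overlapped as well, for a log2 fold change of 0.02 (adjusted p = 0.906, SE 0.111, edgeR). snoR61, annotated as the longest member, stood at 5.70, 8.17 and 7.24 CPM in the mutant and 5.11, 8.70 and 6.14 CPM in the wild type. Its log2 fold change was 0.08 (adjusted p = 0.770, SE 0.216, edgeR), and the spread within each group was larger than the difference between them. The signs of the last 2 fold changes turned under other scaling or when a library was left out.

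**Figure D2:**
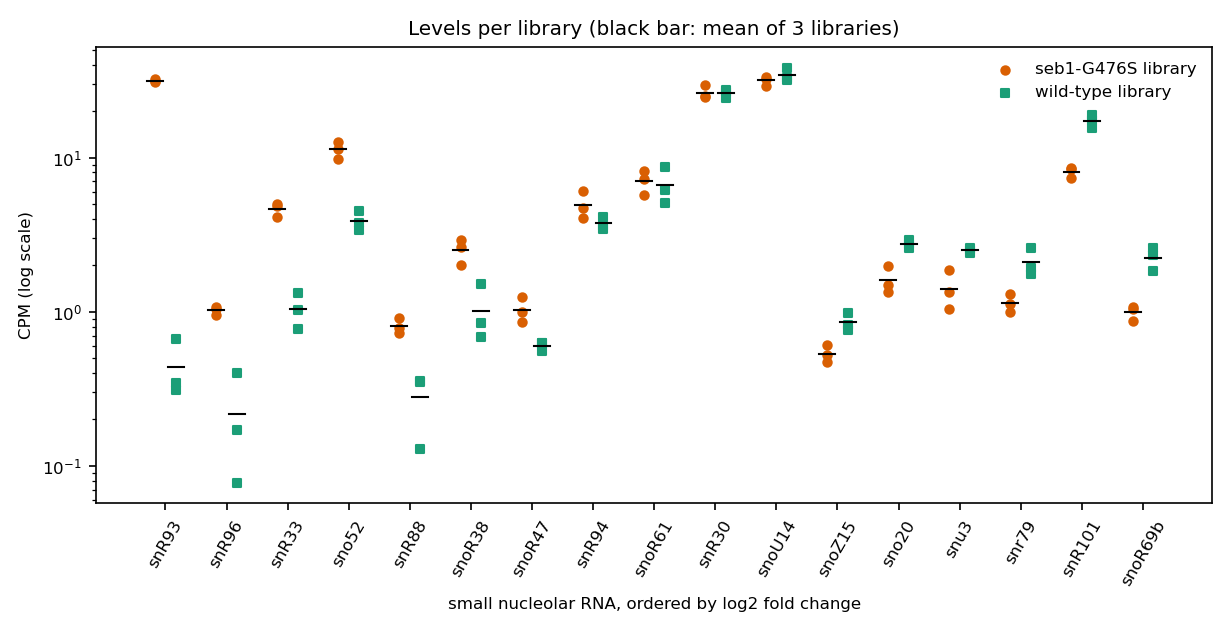
Levels of the 17 named small nucleolar RNAs in each library (y axis, CPM on a log scale), with seb1-G476S libraries as orange circles left of wild-type libraries as green squares and black bars at the mean of 3 libraries. snR93 is near 31 CPM in all mutant libraries and under 1 CPM in all wild-type libraries, while snR30 and snoU14 overlap between the groups.

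Per kilobase of annotated length, snoU14 stood at 283 CPM in the mutant and 306 CPM in the wild type, sno52 at 119 CPM in the mutant and 41.0 CPM in the wild type, and snR30 at 81.0 CPM in the mutant and 80.05 CPM in the wild type. snR101, at 29.7 CPM per kilobase in the mutant and 63.3 in the wild type, was number 3 of the 31 in the wild type by that measure. In the wild type the highest levels per length were thus those of snoU14, snR30 and snR101, and in the mutant those of snoU14, snR93 and sno52.

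Summed over all 57 members, tested or not, the level was 155, 156 and 169 CPM in mutant libraries and 135, 135 and 130 CPM in wild-type libraries. The groups did not overlap, at 159.9 ± 7.55 CPM in the mutant and 133.5 ± 2.68 CPM in the wild type (SD, n = 3 each). The difference in mean log2 sum was 0.26, with p = 0.1 in a two-sided exact permutation test, the smallest p that 3 against 3 libraries allow. Without snR93 the sums were 128.4 ± 7.82 CPM in the mutant and 133.1 ± 2.57 CPM in the wild type, a difference of -0.05 with p = 0.4 in the same exact test. Leaving out snR93, a choice made after its values were seen, thus turned the direction. Without snoU14 the difference was 0.37, again with p = 0.1 in the exact test. The members outside box H/ACA by product summed to 93.6 ± 4.89 CPM in the mutant and 90.1 ± 2.60 CPM in the wild type (SD, n = 3 each). snR30 is counted here, since its product names no box, although ACA stands 3 bases from its end. It averaged 26.4 CPM in the mutant and 26.1 CPM in the wild type.

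**Figure D3:**
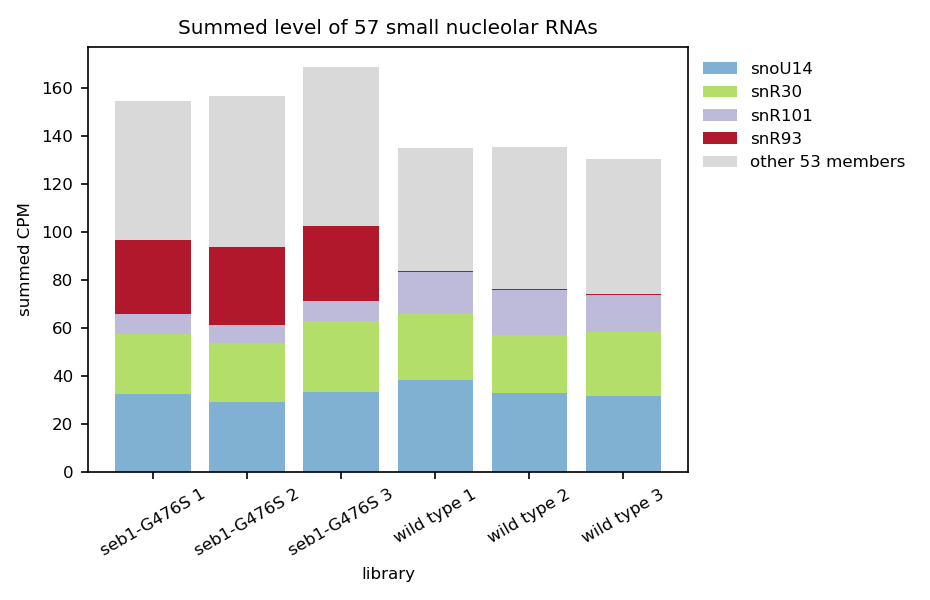
Summed CPM of the 57 small nucleolar RNAs per library (y axis), with the 3 seb1-G476S libraries left of the 3 wild-type libraries and snoU14, snR30, snR101 and snR93 drawn apart from the other 53. The red layer of snR93 is about 31 CPM in each mutant library and barely visible in the wild type.

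By position in the RefSeq annotation, 38 of the 57 lay outside other features of the same strand, 11 in an intron and 8 within an exon of another listed transcript. All 8 in an exon were at 0 in every library. They were snoZ8, snoZ7, snoZ5, snoZ4 and snoZ3 in psf3-antisense-1, snoZ30 in SPNCRNA.1483, snoR68 in SPNCRNA.1650 and snR97 in rad8-antisense-1. HTSeq by default assigns no read that overlaps more than 1 feature, so for these the zeros do not show absence of the RNA. Whether that setting was used is not given in the sources used here. Of the transcripts that cover them, rad8-antisense-1 rose, at 47.8 ± 2.43 CPM in the mutant and 8.40 ± 1.51 CPM in the wild type (SD, n = 3 each), a log2 fold change of 2.51 (SE 0.135). SPNCRNA.1483 rose as well, for a log2 fold change of 0.58 (adjusted p = 0.0113, SE 0.157, edgeR). psf3-antisense-1, at 0.726 ± 0.158 CPM in the mutant and 1.07 ± 0.260 CPM in the wild type (SD, n = 3 each), and SPNCRNA.1650 were not called. Which part of those reads came from the small nucleolar RNAs inside was not tested. Outside such exons 4 of 38 were at 0 (snr62, sno16, snR5 and snR10) and 0 of 11 in introns were.

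Of the 11 intronic members 5 were tested, and 2 rose, 1 fell and 2 were not called. The shares over all features were 26.7% higher and 28.4% lower. snoR38, an RNA with box C and box D letters, lies in an intron of SPAC29A4.02c, the gene of a translation elongation factor subunit (EF-1 gamma). It had 2.94, 2.0 and 2.63 CPM in the mutant and 0.687, 1.52 and 0.846 CPM in the wild type. The libraries did not overlap, and the log2 fold change was 1.28 (adjusted p = 0.00493, SE 0.294, edgeR). Its host rose too, at 2393 ± 197 CPM in the mutant and 1868 ± 182 CPM in the wild type (SD, n = 3 each), a log2 fold change of 0.36 (adjusted p = 0.00597, SE 0.0849, edgeR). The difference between the change of the member and that of the host was not tested.

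snoR47 lies in an intron of fta3 and had 0.993, 0.854 and 1.25 CPM in the mutant and 0.558, 0.622 and 0.623 CPM in the wild type. It rose by a log2 fold change of 0.77 (adjusted p = 0.0288, SE 0.257, edgeR), but the call was lost in DESeq2 (adjusted p = 0.183), with library totals alone (adjusted p = 0.0540) and without any 1 of 4 libraries. The adjusted p was 0.0613 and 0.118 without mutant replicates 1 and 3, and 0.0721 and 0.0658 without wild-type replicates 1 and 2. Its host fta3 had a log2 fold change of 0.01 and was not called. snoZ15, in an intron of gim6, had 0.604, 0.520 and 0.474 CPM in the mutant and 0.987, 0.816 and 0.757 CPM in the wild type. Its log2 fold change was -0.68 (SE 0.261), with an adjusted p just under the 0.05 threshold (0.0499993, edgeR). The call was lost in DESeq2 (adjusted p = 0.283), with no filter on low counts (adjusted p = 0.0698) and without any 1 of 5 libraries. The adjusted p was 0.0707, 0.141 and 0.136 without mutant replicates 1, 2 and 3, and 0.148 and 0.0871 without wild-type replicates 1 and 2. gim6 was not called, at a log2 fold change of -0.28 (adjusted p = 0.163, SE 0.161, edgeR). snoR39b, in rpl701, and snoU24b, in cpc2, were not called, with log2 fold changes of 0.40 (SE 0.245) and 0.02 (SE 0.283). The 11 intronic members summed to 7.43 ± 0.299 CPM in the mutant and 5.40 ± 0.914 CPM in the wild type (SD, n = 3 each).

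Members below the filter had at most 55 counts over the 6 libraries, and 6 of them had fewer than 10. In 2 of the 14 with counts the groups did not overlap, against 63.9% of the 6046 tested features, which do not include these members. snoR58, in an intron of ade4, had 9, 11 and 7 counts in mutant libraries and 2, 6 and 2 in wild-type libraries. snR70 had 7, 3 and 4 counts in mutant libraries and 14, 10 and 11 in wild-type libraries. These were picked after their values were seen and have no test.

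The genes next to the members that changed, on the same strand only, were compared in the same fit. Upstream of snR93 on the same strand, 84 bases away in ASM294v3, lies rpl29, which codes for a ribosomal protein of the large subunit. It fell, at 751 ± 18.9 CPM in the mutant and 914 ± 18.2 CPM in the wild type (SD, n = 3 each), a log2 fold change of -0.28 (adjusted p = 0.00139, SE 0.0508, edgeR). Downstream of snR93, SPBC776.03 had a log2 fold change of 0.22 (adjusted p = 0.0276, SE 0.0717, edgeR). snR33 lies 43 bases from SPBC12C2.11, which rose, at 554 ± 10.1 CPM in the mutant and 463 ± 34.2 CPM in the wild type (SD, n = 3 each; log2 fold change 0.26, adjusted p = 0.00618, edgeR). sno52 lies 123 bases from mcp60, the gene of a mitochondrial chaperonin, which rose by a log2 fold change of 0.29 (adjusted p = 0.00388, SE 0.0619, edgeR). snR88 lies 164 bases from tvp15, which was not called at a log2 fold change of -0.11. The upstream neighbours of these 4 thus gave 2 rises, 1 fall and 1 gene not called. The 4 members were picked for their own rises, so the sizes of change are not compared with those of the neighbours.

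Over the 26 tested members that lie outside other features, the 5 that rose were 43 to 1940 bases from the next feature upstream on the same strand, with a median of 123. The 5 that fell were 217 to 2916 bases away, with a median of 1919, and the 16 not called were 113 to 7078 bases away, with a median of 618.5. Within 200 bases of an upstream feature were 4 of the 5 that rose, 0 of the 5 that fell and 5 of the 16 not called. The exception among those that rose was snR96, 1940 bases from vps53. The window was chosen after the values were seen, so these counts are a description with no test. The distances come from an assembly other than the one the authors used. Around the members that fell, pop6 upstream of snR101 had a log2 fold change of -0.39 (adjusted p = 0.0099, SE 0.104, edgeR), and rad60 upstream of sno20 one of -0.62 (adjusted p = 0.00762, edgeR). Upstream and downstream neighbours at any distance, with the host genes, of the 13 members that changed gave 25 tested features. Of these, 19 were called, against 55% of all features.

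**Figure D4:**
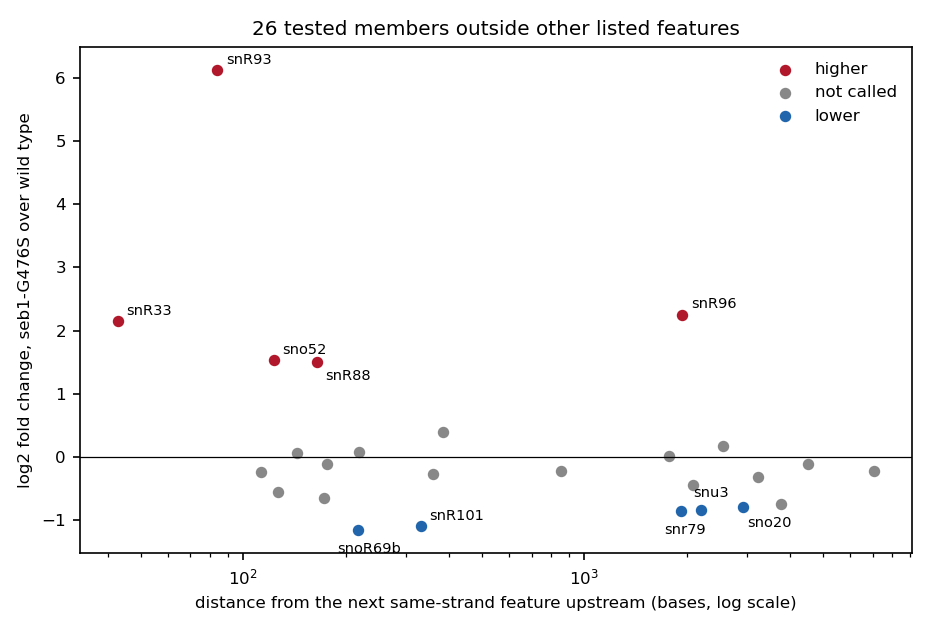
Log2 fold change (y axis, seb1-G476S over wild type) of the 26 tested small nucleolar RNAs outside other listed features against the distance in bases to the next annotated feature upstream on the same strand (x axis, log scale). The 4 red points at the left, snR33, snR93, sno52 and snR88, lie within 200 bases, as do 5 of the grey points and none of the blue ones.

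The kit was stranded per the labels' protocols, and the option used in counting is not given in the sources used here. Of the 57, 10 overlap an exon of a listed feature on the opposite strand, and 9 of these had counts. The exception was snR97, which also lies within an exon on its own strand. Of the members that changed, snR96 overlaps tim17, which was not called at a log2 fold change of -0.07. sno52 overlaps taf9, which fell by a log2 fold change of -0.42 (adjusted p = 0.000979, SE 0.0705, edgeR) while sno52 rose. sno20 overlaps SPBC1921.04c, which averaged 0 CPM in the mutant and 0.0148 CPM in the wild type and was not tested. snr79 overlaps gpi12, which fell with it, at a log2 fold change of -0.71 (adjusted p = 0.00143, edgeR).

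Proteins of the small nucleolar RNA particles were listed as 18 genes, of which 14 were found and tested. In edgeR 0 rose and 7 fell, against 26.7% and 28.4% of all features; at an unadjusted p under 0.05 and in DESeq2 0 rose as well, and their median log2 fold change was -0.26, beside -0.0078 over all features. The core proteins of box C/D particles, fib1 (fibrillarin), nop56, nop58 and snu13, were not called, with log2 fold changes of -0.01, -0.05, -0.02 and -0.02. Of the box H/ACA core, cbf5 (the pseudouridine synthase) and gar1 were not called, at -0.11 and -0.14. The other core genes, nhp2 at 180 CPM in the mutant and 245 CPM in the wild type, and nop10, fell by 0.45 and 0.31 on the log2 scale. The falls were otherwise among assembly factors. shq1, the chaperone of Cbf5, fell by 0.82 on the log2 scale (adjusted p = 0.00137, SE 0.146, edgeR), and rvb1, rvb2, bcd1 and hit1 fell by 0.36, 0.79, 0.79 and 1.06. With library totals alone 12 of the 14 were called.

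Among 31 tested genes of small nucleolar RNA processing and surveillance, 4 rose (12.9%, against 26.7% of all features) and 19 fell (61.3%, against 28.4%), with a median log2 fold change of -0.42. Those that fell included rrp6, the nuclear exosome nuclease, at 34.5 CPM in the mutant and 54.0 CPM in the wild type (log2 fold change -0.65, SE 0.164, adjusted p = 0.0082, edgeR). The exosome genes dis3 and rrp4 fell by 0.63 and 0.97 on the log2 scale. So did mtr4, the helicase that feeds RNA to the exosome, by 0.76, and cid14 and air1, the poly(A) polymerase and a zinc knuckle protein of TRAMP, by 0.70 and 0.71. sla1, the La protein, fell by 0.77. Those that rose were lsm2 and lsm8 of the Sm-like ring, by 0.89 and 0.48 on the log2 scale, pac1, the RNase III that cuts precursors of small nuclear and nucleolar RNAs, by 0.32, and pab2 by 0.17 (adjusted p = 0.0296, SE 0.0585, edgeR). For these genes the counts give mRNA level and not the amount of protein.

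Of 24 tested genes of 3′-end formation and termination, 4 rose (16.7%, against 26.7% of all features) and 10 fell (41.7%, against 28.4%), with a median log2 fold change of -0.11. The 14 called were 58.3% of the list, near the 55% of all features. The largest rise was that of msi2, described as a cleavage factor subunit and followed by seb1 itself. msi2 stood at 141 ± 1.32 CPM in the mutant and 40.6 ± 6.21 CPM in the wild type (SD, n = 3 each; log2 fold change 1.79, SE 0.0963). pcf11, a termination factor that binds the polymerase tail, and dis2, a phosphatase of the cleavage and polyadenylation machinery, rose by 0.33 and 0.30 on the log2 scale. ssu72, another phosphatase of the polymerase tail, fell by 1.04 (adjusted p = 0.00116, SE 0.181, edgeR). sen1, the helicase that works with Nrd1 in budding yeast, was not called at a log2 fold change of 0.03.

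Of 12 tested markers of cells in other states, 4 were higher and 2 lower in the mutant, so 50% were called, against 55% of all features. The summed level of 7 genes of meiosis and sporulation was 67.4 to 71.2 CPM in mutant libraries and 33.3 to 44.5 CPM in wild-type libraries, with isp3 raised and spn5 lowered of 5 tested. Of that sum isp3 alone made up 56.2 CPM in the mutant and 24.7 CPM in the wild type on average. Genes of mating M cells summed to 23.2 to 31.3 CPM in the mutant and 13.5 to 25.0 CPM in the wild type (ranges that overlap; 2 of 4 tested were higher, and mat1-Mc was at 0 in all libraries). Those of P cells summed to 68.1 to 80.1 CPM in the mutant and 39.1 to 51.8 CPM in the wild type (map3 was higher and map1 lower of 3 tested), of which map3 made up 65.3 CPM in the mutant and 31.8 CPM in the wild type on average. In bulk RNA a changed share of cells and a changed amount of RNA per cell cannot be told apart, and the part of these cells in the values of the small nucleolar RNAs was not tested.

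The authors' deposited table of the same comparison gave an adjusted p for 47 of the 57 members, with 7 higher and 6 lower at an adjusted p under 0.05. Of these, 6 of the 7 higher and 5 of the 6 lower were also called by edgeR here. snR94 and sno12 were called in the authors' deposited table alone, and snoR47 and snoZ15 in edgeR alone. For snR93 the authors' deposited table gave a log2 fold change of 6.18 with an SE of 0.297.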

How the data were processed

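Poly(A)-selected RNA of 6 libraries was made with a stranded Illumina kit and sequenced in paired ends, per the labels' protocols. The authors deposited raw counts per annotated feature, with no scaling, per the file headers. A second deposited table is the authors' own comparison. Per the file headers it gives a log2 fold change and its error, a score (the test statistic), a p-value before and after adjustment, and group averages as a signal of scaled counts. Build ASM294v2 and the tools HTSeq 0.10.0, HISAT2 2.1.0, DESeq2 and SAMtools are listed in the submitters' processing notes. Which annotation release and strand setting were used is not given in the sources used here. The reference annotation is of another assembly, ASM294v3, so it gave sequences, lengths, neighbours and distances but no coordinates are printed.

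Counts were tested with edgeR 4.0.16 in R 4.3.3 (quasi-likelihood, TMM scaling, filterByExpr with a minimum count of 10, two-sided) over 6046 features, with Benjamini-Hochberg adjustment over all of them and calls at an adjusted p under 0.05. Each SE was computed as the log2 value divided by the root of F from the quasi-likelihood test. The design left 4 residual degrees of freedom, before edgeR's sharing of variance across features. DESeq2 1.42.0 was an alternative, with other scalings, no filter, a replicate block and each library left out. The procedure was also run on simulated data in which only a small part of the features changed. In these data 3328 of 6046 features were called, so that run does not check the scaling. Depth was 21013941 to 27910803 counts per library, and no pair of libraries in a group agreed within sampling noise (lowest chi-square per degree of freedom 3.81).

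The members, gene lists and tests were chosen with earlier results of these data known. Values per library are given for up to 14 called members by size of change and up to 4 others by level. List symbols not found were naf1, pih1, tah1 and nop17 (particle proteins), rnt1 (processing) and cpsf2 (3′ ends). The symbols clp1, pap1, fip1 and nrd1 name other genes in this species and were left out. Same-numbered replicates were checked for pairing and are treated as unpaired.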

Additional observations from a re-analysis of the deposited data

How the results depend on the processing

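Across other scalings, DESeq2, no filter, the replicate block and each library left out, 6 to 8 small nucleolar RNAs rose and 4 to 7 fell, and snR93 stayed called and higher in all of them. Leaving out 1 library gave 6 to 7 rises, 4 to 7 falls, a median log2 fold change of -0.161 to -0.075 and a summed log2 difference of 0.221 to 0.283. Without snR93, added after seeing the data, the sum gave -0.053, since that member carries the rise. Library totals alone moved the median of all features by -0.118 and raised the calls among particle protein genes to 12. They also turned snR30 to -0.0989 and snoR61 to -0.0394; the cause was not tested. With 1 library left out, snR30 ranged between -0.0803 and 0.0634 and snoR61 between -0.0798 and 0.325, neither being called in any; snR30 was below 0 without mutant replicate 3 or wild-type replicate 2, and snoR61 without mutant replicate 2 or wild-type replicate 1. Over all alternatives the adjusted p ran between 0.0285 and 0.183 for snoR47, 0.0200 and 0.283 for snoZ15, 0.00715 and 0.0592 for snu3 and 0.0457 (the replicate block) and 0.375 for snR94. Deviations from the group mean correlated at 0.357, 0.0585 and 0.263 between same-numbered libraries of the groups, against -0.301 to 0.0658 between libraries of different number. Whether same-numbered libraries share a batch was not tested, and the main fit treats them as unpaired. The replicate block gave 8 rises and 5 falls of the class. Over all features it gave 1877 rises and 2029 falls, against 1613 and 1715 in the main fit. Levels under about 1 CPM rest on few counts per library.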
